A study of Homo sapiens with 18 samples.

Results

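The regions described here are the promoters of long non-coding RNA (lncRNA) genes that lie away from protein-coding promoters, taken as the transcription start site (TSS) ± 1000 bp. Members were the GENCODE genes of type lncRNA on chromosomes 1 to 22 and X of hg19 that had no protein-coding TSS within 5000 bp. There were 14292 such promoters, 76.9% of the 18592 lncRNA genes, among the TSS windows of 63827 annotated genes, and the other 4300 lncRNA genes were left out for a nearby protein-coding TSS. The TSS of a gene was taken as the start of its whole annotated extent on its strand. With the starts of protein-coding transcripts counted too, 13234 of the 14292 remained. The measurements are peaks of the linker histone isotypes H1.2 and H1.5 in HL-60/S4, an established human myeloid leukemia cell line that was used undifferentiated and untreated in every group. In xChIP the chromatin of once-fixed cells was sonicated and then mixed with the antibody, whereas in xxChIP the antibody was bound inside permeabilized fixed cells and fixed in place by a second fixation ahead of sonication. Each antibody (H1.2 or H1.5) was used with each protocol (xChIP or xxChIP) in 3 replicates, and the 3 Input samples of each protocol were not analysed here. The authors merged the peaks of the 3 replicates into 1 list per combination, without scores or read numbers. The depth behind a peak and the spread between replicates are therefore unknown, no comparison below carries a test, and the antibodies and protocols are compared as single lists.

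Linker histones bind nucleosomes where the DNA enters and leaves and help chromatin fibres to compact, and active promoters usually hold little of them. lncRNA genes are transcribed, mostly by RNA polymerase II, into RNAs without a long reading frame, and many are spliced. Some of these RNAs scaffold nuclear bodies or silence neighbouring genes, some are the precursors of microRNAs or small nucleolar RNAs (snoRNAs), and for many no role is known. Their promoters differ from those of protein-coding genes in base composition. The median GC content of the 2000-bp windows was 44.9% for lncRNA promoters, 55% for the 20098 protein-coding promoters and 39.5% for the 1308456 bins of 2000 bp that were free of any promoter. The observed/expected CpG ratio had medians of 0.241, 0.612 and 0.189 in the same order. Of the lncRNA promoters, 9290 were intergenic, 3661 lay inside a protein-coding gene on the opposite strand, 1218 inside one on the same strand and 123 inside genes on both strands. The windows of 1273 promoters overlapped another lncRNA promoter, so that the 14292 windows are not all independent.

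The following stretches run from 150 bp before the TSS, 200 bp in all, on the strand of the gene in hg19, with CG dinucleotides in capitals. They are shown because they belong to promoters with contrasting peak patterns, followed by a pair of well-known genes, LUCAT1 and MALAT1, that were picked after their values were seen. LINC02006 (chr3:153697926-153698125, minus strand) was covered over its whole window by both xChIP lists and by neither xxChIP list. LINC01189 (chr9:46763602-46763801, plus strand) was covered by all 4 lists, and MIR4300HG (chr11:82429292-82429491, minus strand), a microRNA host gene, by none. LUCAT1 (chr5:90610315-90610514, minus strand) was covered by both xChIP lists and neither xxChIP list, and MALAT1 (chr11:65264961-65265160, plus strand) by no list.
LINC02006: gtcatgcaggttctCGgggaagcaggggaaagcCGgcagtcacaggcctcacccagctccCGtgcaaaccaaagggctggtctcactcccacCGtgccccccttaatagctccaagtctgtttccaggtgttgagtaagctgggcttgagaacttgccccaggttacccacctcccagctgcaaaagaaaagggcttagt
LINC01189: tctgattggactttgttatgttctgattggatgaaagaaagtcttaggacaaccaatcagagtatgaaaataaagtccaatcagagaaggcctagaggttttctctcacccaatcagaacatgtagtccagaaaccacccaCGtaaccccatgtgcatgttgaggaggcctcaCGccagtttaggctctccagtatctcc
MIR4300HG: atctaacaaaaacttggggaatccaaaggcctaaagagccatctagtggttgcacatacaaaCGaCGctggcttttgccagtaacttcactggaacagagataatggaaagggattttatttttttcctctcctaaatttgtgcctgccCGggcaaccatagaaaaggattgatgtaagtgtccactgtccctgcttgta
LUCAT1: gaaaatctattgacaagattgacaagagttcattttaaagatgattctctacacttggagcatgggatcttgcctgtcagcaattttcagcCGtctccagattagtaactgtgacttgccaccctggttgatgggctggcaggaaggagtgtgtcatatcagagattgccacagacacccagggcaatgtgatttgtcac
MALAT1: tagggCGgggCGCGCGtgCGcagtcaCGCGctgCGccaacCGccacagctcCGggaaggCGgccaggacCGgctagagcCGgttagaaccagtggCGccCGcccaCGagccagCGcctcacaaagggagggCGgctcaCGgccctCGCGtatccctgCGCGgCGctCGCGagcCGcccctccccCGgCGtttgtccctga
The stretch of MALAT1 had 29 CG dinucleotides and a GC content of 74.5%, against 4 in LINC02006, 2 in LINC01189, 3 in MIR4300HG and 1 in LUCAT1. The median over the 14292 lncRNA promoters was 2, with quartiles of 1 and 5. Of the stretches shown, only that of MALAT1 is dense in CG dinucleotides.

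H1 peaks were less common at lncRNA promoters than in promoter-free sequence of the same GC content, and this held for all 4 lists. An xChIP H1.2 peak overlapped 5100 lncRNA promoters by at least 1 bp, or 35.7% (95% Wilson interval 34.9% to 36.5%), while 35.4% of all promoter-free bins and 44.04% of bins matched in GC content were overlapped. The promoter ratio, which is the share of promoters divided by that of GC-matched bins, was 0.810 (0.793 to 0.828). For xChIP H1.5, 2977 promoters or 20.8% (20.2% to 21.5%) were overlapped, against 25.9% of all bins and 25.2% of GC-matched bins, with a ratio of 0.826 (0.800 to 0.853). An xxChIP H1.2 peak overlapped 3154 promoters or 22.1% (21.4% to 22.8%), against 30.9% of all bins and 24.1% of GC-matched bins, and the ratio was 0.915 (0.887 to 0.944). For xxChIP H1.5 the count was 2841 promoters or 19.9% (19.2% to 20.5%), against 27.5% of all bins and 22.7% of GC-matched bins, with a ratio of 0.877 (0.848 to 0.906). Against all bins, which are poorer in GC, the share of xChIP H1.2 was not lower, with a ratio of 1.01, so the deficit of this list appears only once GC content is matched. All intervals cover counting error only, and they are too narrow where windows overlap or neighbouring promoters share a peak.

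**Figure D1:**
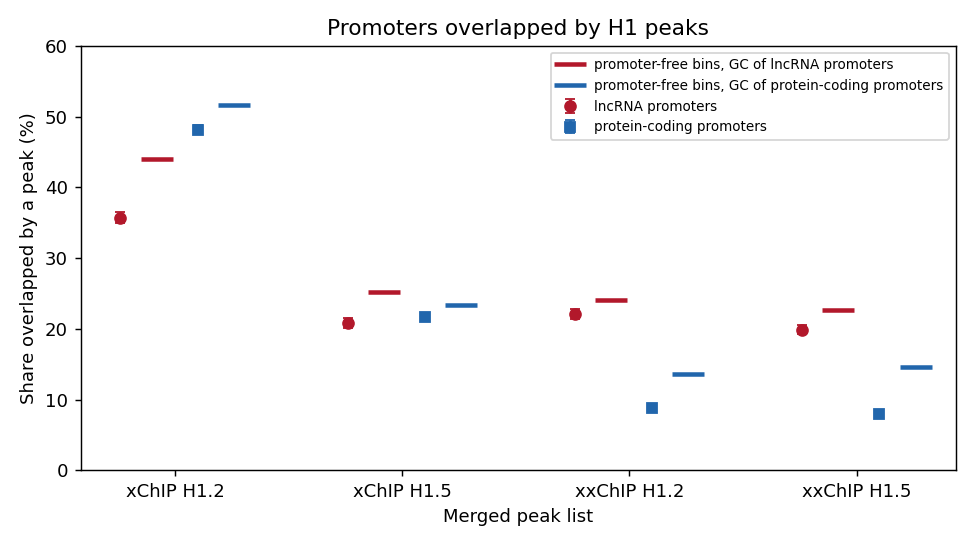
Share of promoters overlapped by a merged peak (%, vertical axis) for each of the 4 peak lists (horizontal axis). Points are lncRNA promoters (red circles) and protein-coding promoters (blue squares) with 95% Wilson intervals, and bars are promoter-free bins of the same GC content as the promoters in that colour. The red points lie below their bars by 2.04 to 8.36 percentage points, and the blue points of the xxChIP lists lie furthest below the red ones.

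The deficit was found on most chromosomes. The xChIP H1.2 ratio was below 1 on 23 of 23 chromosomes, from 0.709 on chromosome 21 to 0.884 on chromosome 16, with a mean of 0.811 ± 0.0461 (SD over chromosomes). The xChIP H1.5 ratio was also below 1 on all 23, from 0.619 on chromosome X to 0.966 on chromosome 21, with a mean of 0.826 ± 0.0801. The xxChIP H1.2 ratio was below 1 on 19 chromosomes and had a mean of 0.929 ± 0.113, and its highest value was 1.23, on chromosome 21. The xxChIP H1.5 ratio was below 1 on 22 chromosomes, from 0.642 on chromosome X to 1.03 on chromosome 19, with a mean of 0.862 ± 0.0821. On chromosome 21 xChIP H1.2 was thus at its lowest and xxChIP H1.2 at its highest. Chromosomes of 1 merged list are not biological replicates, and the number of lncRNA promoters on a chromosome ran from 266 on chromosome X to 1149 on chromosome 1.

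**Figure D2:**
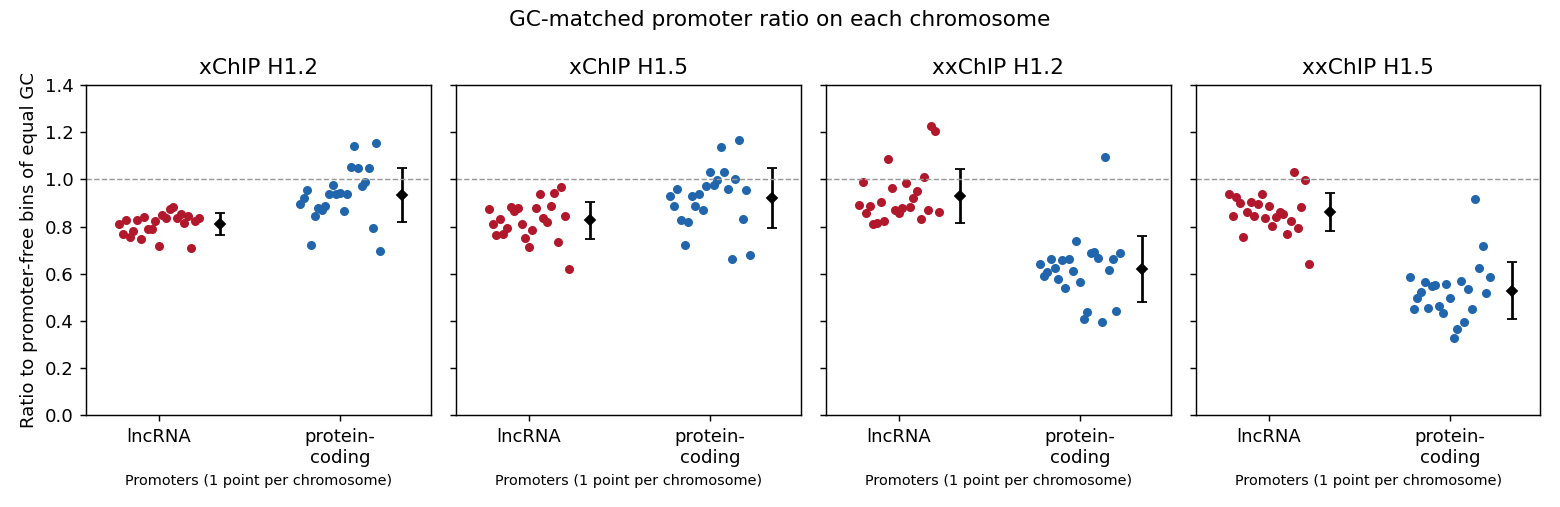
Ratio of the share of promoters with a peak to that of promoter-free bins of equal GC content, 1 point per chromosome (23), for lncRNA (red) and protein-coding (blue) promoters in each list. Diamonds and bars are the mean and SD over chromosomes and the dashed line marks a ratio of 1. All lncRNA points of both xChIP lists lie below 1, and the blue points of the xxChIP lists lie mostly below the red ones.

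lncRNA promoters and protein-coding promoters differed most in the xxChIP lists. Protein-coding promoters, each compared with bins of their own GC content, had xChIP ratios of 0.932 (0.919 to 0.945) for H1.2 and 0.926 (0.902 to 0.9504) for H1.5. Their xxChIP ratios were 0.648 (0.619 to 0.677) for H1.2 and 0.540 (0.516 to 0.567) for H1.5. The log2 of the lncRNA ratio over the protein-coding ratio was 0.50 for xxChIP H1.2 and above 0 on 22 of 23 chromosomes (mean 0.61 ± 0.35, SD). For xxChIP H1.5 it was 0.70 and above 0 on 23 of 23 chromosomes (mean 0.73 ± 0.32). In the xChIP lists the sign was the opposite, with -0.20 for H1.2, below 0 on 21 chromosomes (mean -0.20 ± 0.16), and -0.16 for H1.5, below 0 on 19 (mean -0.15 ± 0.23). Each ratio is weighted to the GC content of its own class, so these differences also hold the difference in GC content. Within bands of GC content the protein-coding minus the lncRNA share of xChIP H1.2 ran from -1.30 points (40% to 45% GC) to 6.53 points (50% to 55% GC). For xChIP H1.5 it ran from -0.01 points (under 35% GC) to 2.70 points (50% to 55% GC). The xChIP H1.5 contrast was small under 2 other settings. With TSS ± 500 bp the ratios were 0.764 for lncRNA and 0.773 for protein-coding promoters. For windows covered to at least 50% they were 0.693 and 0.711. Between the protocols, the lncRNA promoter ratio of H1.2 was higher in xxChIP than in xChIP by 0.18 on the log2 scale, and on 20 of 23 chromosomes. For H1.5 the same difference was 0.086, on 16 chromosomes. Each difference is smaller than its SD over chromosomes, which was 0.206 for H1.2 and 0.126 for H1.5. Matching bins also on distance to a protein-coding TSS and on location inside or outside a protein-coding gene gave 0.12 (H1.2) and 0.053 (H1.5). Both differences turn negative, to -0.50 and -0.15, when GC content is not matched.

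Most lncRNA promoters with a peak had it in only 1 of the protocols, and so did most promoter-free bins with a peak, with or without GC matching. A peak of either isotype in xChIP and of neither in xxChIP was found at 4454 promoters, or 31.2% (30.4% to 31.9%), against 27% of all promoter-free bins and 35.01% of GC-matched bins. The reverse arrangement, xxChIP and no xChIP, was found at 2635 promoters, or 18.4% (17.8% to 19.1%), against 23.4% of all bins and 17.8% of GC-matched bins. At protein-coding promoters the shares were 48.5% and 6.85%, against 45.7% and 9.89% of bins matched to their own GC content. Peaks of both protocols overlapped 1980 lncRNA promoters, 13.9% against 17.8% of GC-matched bins, and 5223 had no peak in any list, 36.5% (35.8% to 37.3%) against 29.4%. Promoters with xxChIP alone were therefore about as common as in matched bins, those with both protocols were less common and those with no peak more common. The isotypes shared promoters only in part. In xChIP 1643 promoters had both isotypes, which was 32.2% of the H1.2 promoters and 55.2% of the H1.5 promoters. In xxChIP 1380 had both, 43.8% of the H1.2 promoters and 48.6% of the H1.5 promoters. Of the promoters with either isotype, both were present at 25.5% in xChIP and 29.9% in xxChIP, against 31.9% and 36.3% of all promoter-free bins and 31.1% and 31.4% of GC-matched bins. The gap to the bins was thus about as large with GC matching in xChIP and much smaller in xxChIP.

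The peaks at promoters, of lncRNA and of protein-coding genes, were longer than those of the whole lists. The 4645 xChIP H1.2 peaks that touched a lncRNA promoter had a median length of 5427 bp, against 2335 bp for the list, and the 3018 xxChIP H1.2 peaks had a median of 3772 bp against 2167 bp. For H1.5 the medians were 2680 against 2101 bp in xChIP and 3106 against 2033 bp in xxChIP. At protein-coding promoters the medians were 8067 (H1.2) and 2918 bp (H1.5) in xChIP and 2900 and 2699 bp in xxChIP, so that the lncRNA promoters had the shorter peaks in xChIP and the longer ones in xxChIP. Long peaks meet any fixed window more often, so a longer median is a property of the overlap rule as well. xChIP H1.2 peaks covered 2418 of the windows over their whole length, which is 16.9% (16.3% to 17.5%) of all members, against 23.2% of GC-matched bins. xChIP H1.5 covered 696 windows completely, 4.87% (4.53% to 5.24%) against 7.65% of bins. In xxChIP the counts were 1021 windows for H1.2, 7.14% (6.73% to 7.58%) against 7.93%, and 770 for H1.5, 5.39% (5.03% to 5.77%) against 6.66%. Complete coverage was thus below that of GC-matched bins in each list, and least so in xxChIP H1.2.

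Around the lncRNA TSS, peak coverage dipped in all 4 lists and recovered on both sides. xChIP H1.2 peaks covered 24.9% of the promoters within 250 bp of the TSS and 28.2% at 4000 to 5000 bp on both sides, a centre to flank ratio of 0.881 (0.857 to 0.907). The ratio was 0.735 (0.702 to 0.770) for xChIP H1.5, from 15.1% in the flanks to 11.1% at the centre. For xxChIP H1.2 it was 0.740 (0.709 to 0.772), from 17.7% to 13.1%, and for xxChIP H1.5 0.727 (0.694 to 0.761), from 15.4% to 11.2%. The steps below the midpoint of centre and flank spanned 2800 bp for xChIP H1.2, 2500 bp for xChIP H1.5, 3300 bp for xxChIP H1.2 and 3700 bp for xxChIP H1.5, and reached further into the gene than upstream in each list. The xxChIP minima lay downstream, at 150 bp for H1.2 and 350 bp for H1.5. Since the median peak of each list was longer than 2000 bp, these widths are those of merged peaks and not of nucleosomes. At protein-coding TSS the xChIP H1.2 dip was 0.872 (0.856 to 0.888), with an interval that overlaps that of the lncRNA TSS. Over all promoters of each kind, the other dips were deeper at protein-coding TSS than at lncRNA TSS. They were 0.593 (0.569 to 0.618) for xChIP H1.5 and, in xxChIP, 0.303 (0.282 to 0.325) for H1.2 and 0.368 (0.342 to 0.395) for H1.5. The GC content around the lncRNA TSS rose from 43.3% in the flanks to 49.4% at 50 bp, and around the protein-coding TSS from 45.1% to 62.4%. The centre to flank ratios are not matched for this rise.

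**Figure D3:**
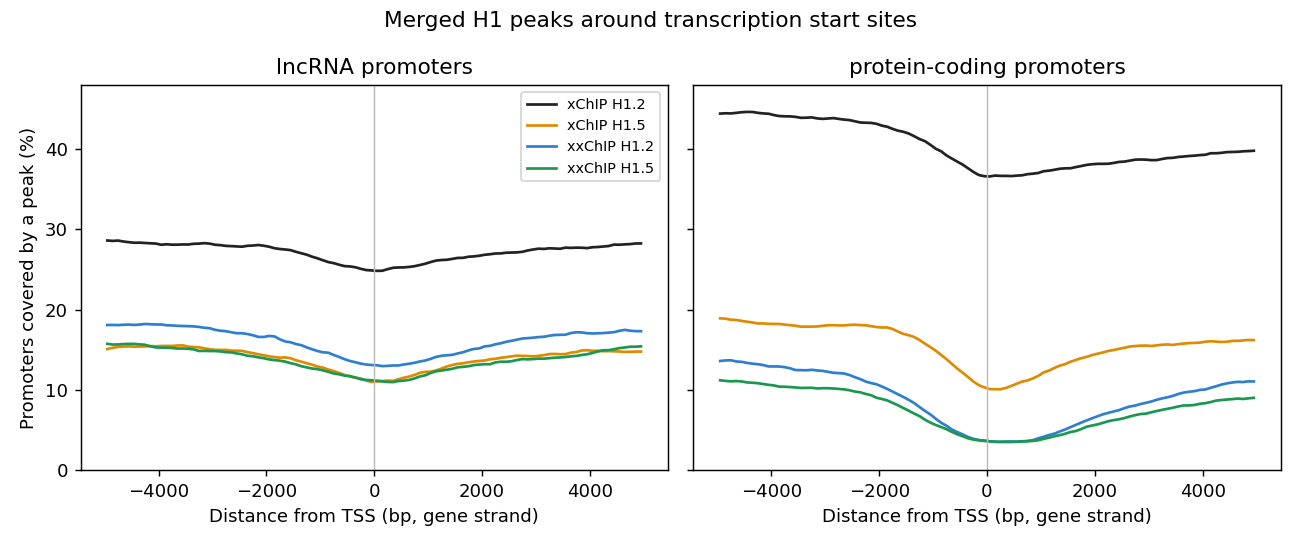
Share of promoters covered by a merged peak (%, vertical axis) in steps of 100 bp by distance from the TSS (bp, horizontal axis, on the strand of the gene) for lncRNA (left) and protein-coding (right) promoters, 1 line per list. At lncRNA promoters the lines fall from 28.2% to 24.9% for xChIP H1.2 and from 17.7% to 13.1% for xxChIP H1.2 between flank and centre. At protein-coding promoters the xxChIP H1.2 line falls from 12.1% to 3.65%.

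CpG-rich lncRNA promoters had deeper xxChIP dips than CpG-poor ones, in centre to flank ratios that are not matched in GC content. The median GC content of the windows was 57.8% in the CpG-rich and 43.15% in the CpG-poor class. The 952 CpG-rich lncRNA promoters (observed/expected CpG of at least 0.6 and GC content of at least 50%) made up 6.66% of the members, against 46.96% of protein-coding promoters, and 11490 were CpG-poor (observed/expected CpG under 0.4). Within 250 bp of CpG-rich lncRNA TSS, xxChIP H1.2 covered 2.15% against 10.9% in the flanks, a ratio of 0.197, and xxChIP H1.5 covered 1.90% against 10.1%, a ratio of 0.188. Both lay below the xxChIP ratios of all protein-coding TSS, 0.303 (H1.2) and 0.368 (H1.5). The dips of protein-coding promoters were not divided by CpG class. CpG-poor lncRNA promoters had ratios of 0.780 and 0.777. For xChIP the contrast between the classes was smaller, with 0.860 and 0.881 for H1.2 and 0.631 and 0.725 for H1.5. Counted by overlap, the xxChIP H1.5 ratio to GC-matched bins was 0.413 (0.308 to 0.551) for CpG-rich and 0.896 (0.865 to 0.927) for CpG-poor lncRNA promoters. That of xxChIP H1.2 was 0.810 (0.640 to 1.02) and 0.922 (0.893 to 0.952), with intervals that overlap. xChIP H1.5 ran the other way, at 1.08 (0.957 to 1.21) for CpG-rich and 0.767 (0.740 to 0.796) for CpG-poor promoters. At the 1850 promoters of the intermediate class it was 1.10 (1.02 to 1.19), an interval above 1. Counted by overlap with GC matched, the xChIP H1.5 ratio was thus below 1 in the CpG-poor class only. The xChIP H1.5 dip at the TSS, in contrast, was deeper in the CpG-rich class. The other lists had intermediate ratios of 0.874, 0.874 and 0.863. Of the CpG-rich lncRNA promoters, 48% had xChIP without xxChIP and 3.89% the reverse, and among CpG-poor ones the shares were 27.9% and 20.7%. Within the CpG-rich class the xxChIP H1.2 ratio was still higher for lncRNA promoters than the 0.513 of the 9439 protein-coding promoters, and the xxChIP H1.5 ratio higher than their 0.281. In the CpG-poor class the protein-coding ratios were 0.762 and 0.760. For xChIP H1.5 the lncRNA ratio was the higher in the CpG-rich class, at 1.08 against 0.967 for protein-coding promoters. In the CpG-poor class it was the lower, at 0.767 against 0.849. For xChIP H1.2 the lncRNA ratio was the lower in both classes, at 0.830 against 0.942 (CpG-rich) and 0.795 against 0.923 (CpG-poor).

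With GC content the share of lncRNA promoters with a peak was higher for xChIP H1.2, lower for both xxChIP lists and nearly level for xChIP H1.5. For xChIP H1.2 it was 10.1% (8.37% to 12.1%) among the 1012 promoters under 35% GC, and it reached 51.8% (49.1% to 54.5%) among the 1286 promoters of 55% to 60% GC. For xxChIP H1.2 it fell from 31.3% (28.5% to 34.3%) under 35% GC to 4.00% (2.84% to 5.59%) among the 801 promoters of 60% GC or more. xxChIP H1.5 fell from 24.6% to 4.87% over the same bands, and xChIP H1.5 stayed between 17.7% and 22.2%. Promoter-free bins followed the same trends. At 35% to 40% GC the lncRNA promoters lay below the bins in every list. For H1.2 the shares were 21.1% against 31.4% in xChIP and 30.6% against 36.1% in xxChIP, and for H1.5 they were 19.5% against 28.1% and 25.1% against 31.9%. At 55% to 60% GC xxChIP H1.2 was at 10.8% (9.23% to 12.6%) of lncRNA promoters and 9.18% of bins. Protein-coding promoters in that band were at 5.55% (4.92% to 6.26%). Equal GC content thus left a gap between lncRNA and protein-coding promoters in xxChIP, and in xChIP H1.2 the gap was 3.19 percentage points in that band with lncRNA promoters lower. The xChIP H1.2 gap was not found in every band. It was 0.635 points at 35% to 40% GC, and at 40% to 45% GC lncRNA promoters were the higher, at 33.3% against 32.0%.

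**Figure D4:**
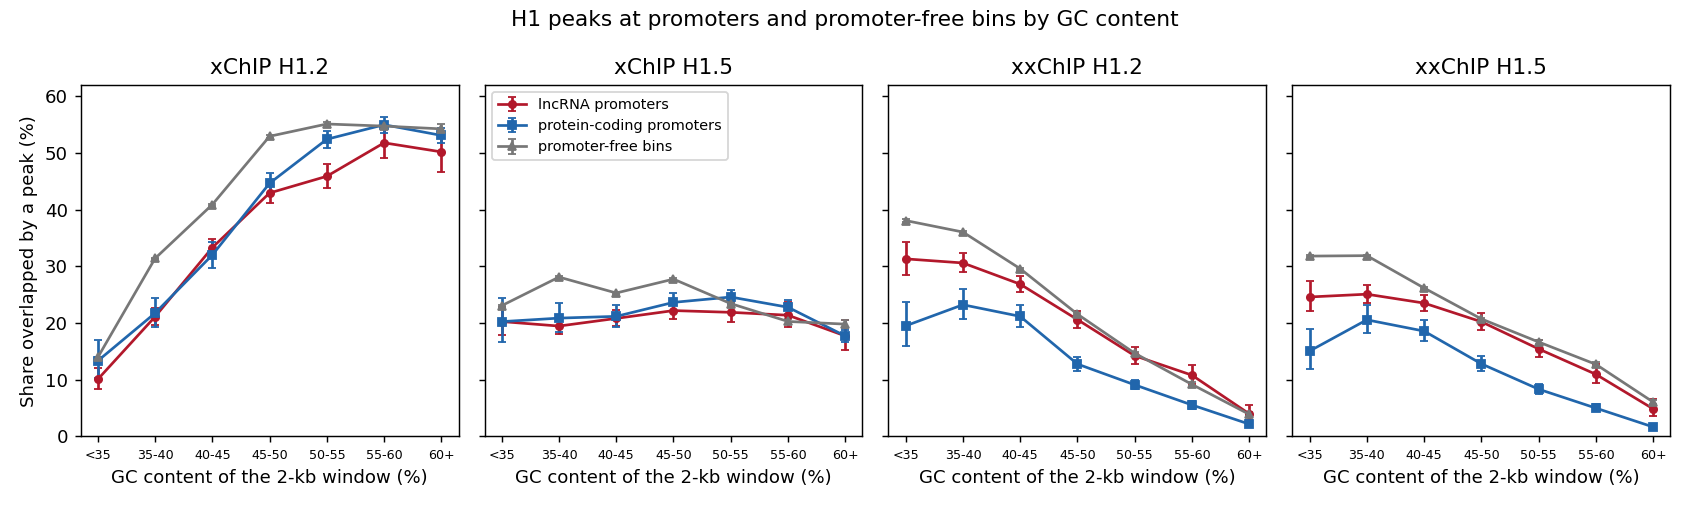
Share of regions overlapped by a peak (%, vertical axis) by GC content of the 2000-bp window (%, horizontal axis) for lncRNA promoters (red), protein-coding promoters (blue) and promoter-free bins (grey), 1 panel per list, with 95% Wilson intervals. In lncRNA promoters xChIP H1.2 rises from 10.1% to above 50% and xxChIP H1.2 falls from 31.3% to 4.00%, and in the xxChIP panels the blue line lies below the red one in every band.

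Distance from protein-coding genes divided the lncRNA promoters further. Of the 2919 promoters at 5 to 20 kb from a protein-coding TSS, 49.4% (47.6% to 51.3%) had an xChIP H1.2 peak, against 40.0% of the 5845 at 20 to 100 kb and 23.9% (22.8% to 25.0%) of the 5528 beyond 100 kb. xxChIP H1.2 went from 15.3% (14.1% to 16.7%) through 19.6% to 28.2% (27.1% to 29.4%), and xxChIP H1.5 from 13.1% through 17.6% to 25.9%. Measured against all promoter-free bins of equal GC content, the ratio fell with distance from 1.03 through 0.874 to 0.593 for xChIP H1.2, and it rose from 0.760 through 0.858 to 1.03 for xxChIP H1.2. Against all bins the xxChIP ratios of the promoters at 5 to 20 kb, 0.760 for H1.2 and 0.662 for H1.5, were the nearest of the 3 classes to the 0.648 and 0.540 of protein-coding promoters. Measured against bins of equal GC content in the same distance class, a comparison added after seeing the data, the ratios of xChIP H1.2 were 0.876 (0.844 to 0.908), 0.828 (0.802 to 0.854) and 0.759 (0.724 to 0.796). Those of xxChIP H1.2 were 0.883 (0.811 to 0.961), 0.891 (0.846 to 0.938) and 0.919 (0.881 to 0.958). For H1.5 they ran from 0.823 to 0.837 in xChIP and from 0.826 to 0.877 in xxChIP. In all 12 of these combinations the ratio and its interval were below 1. Over all members, matching bins on GC content, distance and location inside or outside a protein-coding gene gave xChIP ratios of 0.816 (H1.2) and 0.811 (H1.5) and xxChIP ratios of 0.886 (H1.2) and 0.841 (H1.5). The 246 promoters just inside the distance limit (5000 to 6000 bp) were overlapped at 55.3% by xChIP H1.2 and 14.2% by xxChIP H1.2, and the 303 lncRNA promoters just outside it (4000 to 5000 bp) at 48.8% and 12.2%.

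**Figure D5:**
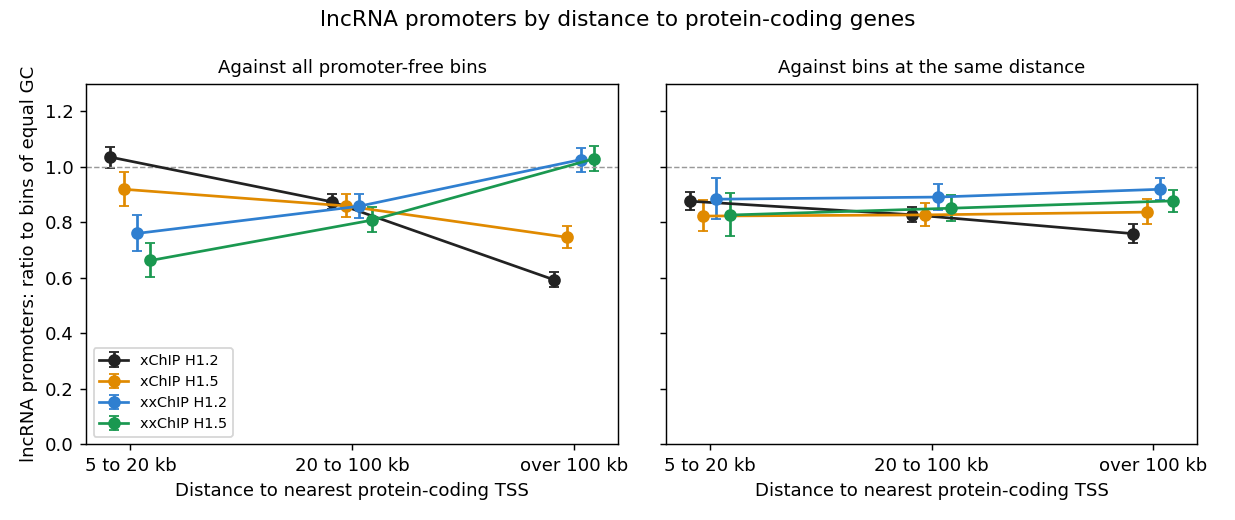
Ratio of the share of lncRNA promoters with a peak to that of promoter-free bins of equal GC content (vertical axis) by distance to the nearest protein-coding TSS (horizontal axis), 1 line per list, with 95% Wilson intervals for counting error. Against all bins (left) the lists spread from 0.593 to 1.03, and against bins in the same distance class (right) all points lie between 0.759 and 0.919.

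Divided by position and compared with bins in the same location, inside or outside protein-coding genes, the lncRNA promoters had ratios below 1 in the 3 larger classes. Against bins outside protein-coding genes, intergenic lncRNA promoters had xChIP ratios of 0.784 (0.762 to 0.807) for H1.2 and 0.820 for H1.5, and xxChIP ratios of 0.912 (0.880 to 0.946) and 0.853. Promoters antisense inside a protein-coding gene had, in the same order and against bins inside such genes, 0.841 (0.807 to 0.876), 0.787, 0.837 (0.780 to 0.898) and 0.823. Sense promoters had 0.922 (0.858 to 0.987), 0.800, 0.877 and 0.903, the last with an interval that reaches above 1 (0.804 to 1.01). The 123 promoters inside genes on both strands had 1.04 (0.836 to 1.24) for xChIP H1.2, and the intervals of all 4 lists held 1 there. Against all promoter-free bins of equal GC content the intergenic xxChIP H1.2 ratio was 0.996 (0.960 to 1.03), an interval that holds 1. The intergenic xxChIP H1.5 ratio was 0.951 (0.915 to 0.989) against those bins, and the antisense xxChIP ratios were lower, at 0.756 (H1.2) and 0.724 (H1.5). Single-exon lncRNA genes, 1957 in all, had xChIP H1.2 peaks at 38.9% (36.8% to 41.1%) of promoters and genes of 3 or more exons at 32.8% (31.8% to 33.9%). In xxChIP H1.5 the order was the reverse, 17.4% (15.8% to 19.2%) against 21.4% (20.5% to 22.4%).

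The sequence next to the TSS differed between promoters sorted by their peaks. Over the same 200-bp stretches as those shown above, both strands were searched for 4 short words chosen after seeing the peak values, as a description of composition. The GC box GGGCGG, a word bound by Sp1, was present in 11.6% (11.1% to 12.2%) of lncRNA promoters. It was in 17.4% (16.3% to 18.5%) of those with xChIP alone, in 6.57% (5.68% to 7.58%) of those with xxChIP alone, in 7.42% of those with both and in 10.9% of those with no peak. The TATA word TATAAA was in 10.3% (9.40% to 11.2%) of promoters with xChIP alone and 14.3% (13.1% to 15.7%) of those with xxChIP alone, against 12.2% overall. CCAAT was present in 24.8% (23.6% to 26.1%) and 28.5% (26.8% to 30.2%) of them, against 26.7% overall. GAGGAA, the core of sites for the myeloid factor PU.1, was in 18.2% (17.1% to 19.4%) and 17.2% (15.8% to 18.6%), with overlapping intervals, against 18.9% overall. The median GC content of the stretch moved with these shares, from 50.5% with xChIP alone to 45% with xxChIP alone. Among the stretches shown, MALAT1 held GGGCGG at 2 positions on each strand, and LINC01189 held CCAAT at 3 positions on the strand of the gene and 2 on the other.

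Of 119 listed lncRNA genes with a known name or role, 75 met the rule for members. At these 75 promoters, 31 had xChIP peaks alone, 8 xxChIP peaks alone and 30 no peak in any list. Over all 14292 lncRNA promoters these shares were 31.2%, 18.4% and 36.5%, and the small groups of genes below are described against them without a test. The 6 nuclear and scaffold lncRNAs MALAT1, NEAT1, NORAD, FIRRE, KCNQ1OT1 and MIAT had no peak of any list within 1000 bp of the TSS. MALAT1 (ENSG00000251562, chromosome 11, TSS at 65265111), whose RNA resides in nuclear speckles, had its nearest xChIP H1.2 peak at 1445 bp and its nearest xChIP H1.5 peak at 1546 bp, with the xxChIP peaks at 56165 bp (H1.2) and 64497 bp (H1.5). NEAT1 (ENSG00000245532, chromosome 11, TSS at 65190245), the scaffold of paraspeckles, had its nearest xxChIP peaks at 1895 bp (H1.2) and 2857 bp (H1.5) and its nearest xChIP peaks at 2679 and 11862 bp. NORAD, a cytoplasmic RNA that binds Pumilio proteins, had its nearest H1.2 peaks at 1453 bp in xChIP and 8033 bp in xxChIP, and its nearest H1.5 peaks at 3507 and 43252 bp. KCNQ1OT1, the antisense RNA of an imprinted domain, had a window of 68.9% GC and its nearest peak, of xChIP H1.2, at 3353 bp.

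The snoRNA host genes, whose introns release the snoRNAs that guide the modification of ribosomal RNA, had xChIP peaks alone at 12 of 18 members. The share was 31.2% for all lncRNA promoters, 43.6% for those at 5 to 20 kb from a protein-coding TSS and 48% for the CpG-rich class. Many of the 18, SNHG7 and SNHG32 among them, belong to the CpG-rich class. Of these 18, 11 had H1.2 and 7 had H1.5 in xChIP, while in xxChIP 1 had H1.2 and 1 had H1.5, and 1 promoter had xxChIP alone and 4 no peak. The windows of SNHG7 (66.0% GC), SNHG21 (48.1% GC) and SNHG32 (53.9% GC) were covered to 100% by both xChIP lists and to 0% by both xxChIP lists. Those peaks were long, since the xChIP H1.2 peaks at SNHG7 and SNHG32 measured 61483 and 64344 bp. At SNHG12, SNHG26 and SNHG30 the xChIP H1.2 coverage was 100% and that of the other lists 0%. SNHG8 had H1.5 over 41.4% of its window in xChIP and over 37.9% in xxChIP, and H1.2 over 0% in both. At DANCR, an RNA named for its part in blocking differentiation, an xxChIP H1.2 peak reached 0.7% of the window and no other list reached it.

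The blood and immune lncRNAs were divided, with shares of xChIP alone and of no peak near the 31.2% and 36.5% of all lncRNA promoters. Among their 18 members 9 had xChIP H1.2, 5 xChIP H1.5, 2 xxChIP H1.2 and 4 xxChIP H1.5, with 6 of xChIP alone, 2 of xxChIP alone and 7 of no peak. LUCAT1 (ENSG00000248323, chromosome 5, TSS at 90610364), a stress and interferon response RNA, was covered to 100% by both xChIP lists and to 0% by both xxChIP lists. The xChIP H1.2 peak ran from 90604236 to 90634628 and the xChIP H1.5 peak from 90607732 to 90612201. THRIL, a regulator of tumour necrosis factor inside BRI3BP on the opposite strand, had the same 4 values, within an xChIP H1.2 peak of 117723 bp. MIR223HG, which hosts the myeloid microRNA miR-223, had no peak within 1000 bp and was 1113 bp from xChIP H1.2, 3752 bp from xChIP H1.5, 5808 bp from xxChIP H1.2 and 62227 bp from xxChIP H1.5. MIR155HG, DLEU1 and DLEU2, the last of which hosts miR-15a and miR-16, also had no peak. MIR181A2HG had xChIP peaks of H1.2 over 68.4% and of H1.5 over 100% of its window. MIR3142HG and MIR4435-2HG were reached by xxChIP H1.5 alone, over 13.8% and 13.1% of their windows.

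Of the 13 microRNA host genes, 7 had xChIP alone, 2 xxChIP alone and 4 no peak, against 31.2%, 18.4% and 36.5% of all lncRNA promoters. MIR17HG, the host of the miR-17-92 cluster, lies in a window of 66.8% GC and was covered to 70.8% by xChIP H1.2, to 53.0% by xChIP H1.5 and to 0% by both xxChIP lists. MIR9-1HG and MIR100HG were covered to 100% by both xChIP lists and to 0% by both xxChIP lists. MIR600HG, MIR9-3HG and MIR34AHG, the last being the host of the p53 target miR-34a, had 100% coverage in xChIP H1.2 alone. MIR205HG had 50.5% of its window under xxChIP H1.5 and 0% under the other lists, and MIR137HG 8.25% under xxChIP H1.2 and 9.5% under xxChIP H1.5.

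The imprinted and developmental lncRNAs are few, and their counts stand beside the 36.5% of all lncRNA promoters with no peak. Of 6 imprinted members, MEG3, MEG9, SNHG14 and AIRN had none, and MEG8 was covered to 100% by a single list, xChIP H1.2. The window of H19 (ENSG00000130600, chromosome 11, TSS at 2025782), a maternally expressed growth regulator, held xChIP H1.2 over 63.6% and xxChIP H1.5 over 61.95%. The H19 peaks ran from 2024752 to 2026053 and from 2025038 to 2026276. Of 4 developmental members, LINC00261, DLX6-AS1 and PAX8-AS1 had no peak and LINC-ROR was covered to 34.2% by xxChIP H1.5. Among the 10 lncRNAs known from cancers, 5 had xChIP alone, 2 xxChIP alone and 2 no peak. UCA1, a bladder cancer RNA, had H1.2 over 90.5% of its window in xChIP and over 100% in xxChIP, and H1.5 over 0% in both. PCA3, a prostate cancer marker, had H1.2 over 4.55% and H1.5 over 100% of its window in xChIP, and SCHLAP1 had only xxChIP H1.2, over 65.5%.

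Some lncRNA promoters were covered over their whole window in a contrasting way. Both xChIP lists covered 294 windows completely while neither xxChIP list touched them. These had a median GC content of 48.3%, and the longest named genes among them were LINC02055, LINC02006, MIR100HG, LINC02994 and KCNMB2-AS1. The reverse pattern was found at 179 windows with a median GC content of 39.9%, and its longest named genes included LINC02822, IFNG-AS1, LINC01440 and LINC01911. IFNG-AS1 (ENSG00000255733, chromosome 12, TSS at 68383225), an enhancer-like RNA 170295 bp from the TSS of the interferon gamma gene, lay in an xxChIP H1.2 peak from 68378499 to 68384450 and an xxChIP H1.5 peak from 68379327 to 68384763, and its nearest xChIP peaks were 11002 bp (H1.2) and 16119 bp (H1.5) away. LINC02006 lay in peaks of nearly equal extent, from 153696396 to 153718202 for xChIP H1.2 and from 153696293 to 153718110 for xChIP H1.5. The 5223 windows that no list touched had a median GC content of 44.1%, and their longest named genes were CCDC26, MIR4300HG, LINC03000, DLEU1 and LINC01505. The patterns were defined by the peaks themselves, so their coverage is a description.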

How the data were processed

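Paired-end reads had been mapped by the authors with Bowtie2 (genome hg19), and those with a unique position went into MUSIC, run with its defaults, whose peaks were then merged over 3 replicates (versions are not given in the sources used here). The deposited values are other than counts or signal: peak starts and ends, without a score, for 12 immunoprecipitated samples in 4 lists. Samples were grouped by their labels.

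Peaks were compared with GENCODE v44 lifted to GRCh37, and sequence was read from the GRCh37 primary assembly, which is the sequence of hg19. Bins of 2000 bp without any annotated TSS within the promoter distance were weighted to the GC content of the promoters in classes of 1 percentage point, with end classes pooled to at least 200 bins (50 on single chromosomes). Intervals are 95% Wilson intervals. No test was made because each list is a single merge of its replicates. The GC-matching step was tested on simulated data. Profiles used steps of 100 bp. The members, gene lists and classes were chosen with earlier results of these data known. Genes named are the listed lncRNA genes that met the rule, and the longest named genes, up to 5, of each of 4 coverage patterns. A gene named by this rule is not reported here. Distance-matched bins, the short words, gap distances, LUCAT1 and MALAT1 were chosen after seeing the data. Alternatives changed the window, the overlap measure, the bins, the matching, the peak length and the members. Reads, expression, repeats and Input samples were not analysed here. The software was Python 3.11.15 with numpy 2.4.6, pandas 2.3.3 and matplotlib 3.10.9 were used.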

Additional observations from a re-analysis of the deposited data

How the results depend on the processing

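The lncRNA promoter ratios were below 1 under each of 14 alternatives, except that of xChIP H1.2, which was so under 13. The exception was no GC matching, which gave 1.01 for xChIP H1.2 and, in xxChIP, 0.715 (H1.2) and 0.723 (H1.5). Without it the log2 difference of xxChIP against xChIP also reversed, to -0.50 for H1.2 and -0.15 for H1.5, and the log2 difference of lncRNA against protein-coding promoters became -0.43 (H1.2) and -0.053 (H1.5) in xChIP and 1.33 and 1.33 in xxChIP. In the same order of lists, TSS ± 500 bp gave promoter ratios of 0.770, 0.764, 0.874 and 0.833, and TSS ± 2500 bp gave 0.881, 0.908, 0.972 and 0.931. They were 0.756, 0.734, 0.878 and 0.819 by covered bases, 0.739, 0.693, 0.851 and 0.793 for windows covered to at least 50%, and 0.776, 0.864, 0.996 and 0.951 for intergenic promoters. The interval of the intergenic xxChIP H1.2 ratio, 0.960 to 1.03, holds 1. With peaks of at least 2000 bp the ratios were 0.781 (H1.2) and 0.770 (H1.5) in xChIP and 0.963 for xxChIP H1.2, and the xxChIP H1.2 dip was 0.777. Matching CpG as well as GC gave 0.800 for xChIP H1.5, and matching distance and gene body, added after seeing the data, gave 0.886 and 0.841 for the xxChIP lists. With CpG matched, lncRNA against protein-coding promoters came to -0.26 for xChIP H1.2 and, in xxChIP, to 0.37 (H1.2) and 0.52 (H1.5). By covered bases it was -0.30 for xChIP H1.2 and 0.73 for xxChIP H1.2. With a flank starting 2000 bp from the TSS the xxChIP dips were 0.791 and 0.797. Promoters with xChIP and no xxChIP made up 28.8% for TSS ± 500 bp, 25.3% at 50% coverage and 28.9% with peaks of at least 2000 bp. Those with xxChIP and no xChIP made up 16.6%, 14.5% and 17.2% under these settings and 20.4% for TSS ± 2500 bp. Apart from the construction of each alternative, the cause of these changes was not tested. Leaving out 1 chromosome at a time gave xChIP ratios of 0.804 to 0.815 (H1.2) and 0.819 to 0.833 (H1.5), and xxChIP ratios of 0.907 to 0.922 (H1.2) and 0.870 to 0.884 (H1.5).

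No paired analysis was possible because each list is a merge of its 3 replicates and no result comes from a test. For the same reason no result was recomputed without a replicate. Peak positions without read numbers do not show how firmly a peak was called, so a promoter without a peak is one where none was called at an unknown depth.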

Other observations

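The 6 lncRNA promoters whose windows were covered to 100% by all 4 lists lay nearer to unassembled sequence than most lncRNA promoters. They were LINC01238 on chromosome 2, ENSG00000286310 on chromosome 5, PTGER4P2-CDK2AP2P2 and LINC01189 on chromosome 9, ENSG00000257891 on chromosome 14 and ROCK1P1 on chromosome 18. Their distances to the nearest gap of at least 50 unknown bases in hg19 were 189.6, 201.4, 9.1, 202.7, 505.9 and 99.1 kb, respectively. All 6 were within 1 Mb of a gap, against 2233 of the 14292 lncRNA promoters, or 15.6%, and the median distance was 195.5 kb against 6075 kb. Of the 294 promoters with both xChIP lists and neither xxChIP list, 20.7% were within 1 Mb of a gap, and of the 179 with the reverse pattern 14.5%. These distances were looked at after the promoters were known, and their part in the peaks was not tested.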
